A study of Mus musculus with 4 samples.

Results

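The VEGF ligand *Vegfa*, the VEGF receptors *Kdr* and *Flt1*, the angiopoietin receptors *Tek* and *Tie1*, the cell surface and junction genes *Cdh5*, *Pecam1*, *Esam* and *Emcn*, and the transcription factor *Sox17* were examined in tdTomato+ cells sorted by FACS from mouse kidneys of the control and *Eya1*cKO genotypes. These 10 genes were taken by symbol from 52636 gene identifiers, and all 10 had reads in every library and passed the filter on low counts. Of them, 8 mark endothelial cells, whereas *Vegfa* is made largely by cells around vessels and *Sox17* is used by arterial endothelium and by other lineages. The 2 control libraries came from embryos with the *Eya1CreER* allele and the tdTomato reporter, and the 2 *Eya1*cKO libraries from embryos with *Eya1CreER*, the reporter and floxed *Eya1* (*Eya1fl/fl*), on a background that mixes C57BL/6J with another inbred strain. Embryos of both genotypes thus carried CreER in the *Eya1* locus, were exposed to tamoxifen given by gavage, and were collected at about E12.5 to E12.75, 48 h after the first dose. CreER is made where the *Eya1* locus is active, so that tdTomato marks cells of that lineage, which includes the nephron progenitor cells (NPCs). Each library was made from 5000 sorted cells. Suspensions were pooled for the sort, and the libraries of a genotype are separate portions of the sorted cells, so *P* values measure the spread between these portions, which may be technical.

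Endothelial cells line blood vessels and grow into the developing kidney alongside the nephrons. VEGF-A released by neighbouring cells acts through the receptor tyrosine kinase encoded by *Kdr* to drive endothelial growth, sprouting and survival, while the *Flt1* product binds the same ligand tightly with little kinase output and so limits it. *Tek* and *Tie1* encode the kinases of angiopoietin signalling, which stabilizes vessels, VE-cadherin (*Cdh5*) and PECAM-1 join neighbouring endothelial cells, and SOXF factors such as Sox17 act in arterial fate. In the forming glomerulus, podocytes are a main source of VEGF-A.

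The libraries held 17457452 to 37999342 reads on genes, with more in the controls, and 12.9% to 13.9% of the recorded reads lay on no gene in the controls compared with 20.9% to 22.7% in *Eya1*cKO. *Eya1*, the targeted gene, had 6612 and 6420 reads in the controls and 377 and 219 in *Eya1*cKO (log2 fold change -3.60, SE 0.18, adjusted *P* = 1.9e-04). All 8 NPC genes tested, a list that includes *Eya1* itself, were lower in *Eya1*cKO, as were 4.41% of all genes tested. The genotypes were compared by the quasi-likelihood test of edgeR over 19041 genes, and a positive log2 fold change means higher in *Eya1*cKO. Levels are given as CPM, counts scaled to library size with TMM factors, with mean ± SD over n = 2 libraries, or as FPKM, which also divides by exonic length. Counting error alone was small for these genes, since the lowest count of any of the 10 in any library was 214.

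Transcripts of the endothelial receptors and junction genes were higher in the *Eya1*cKO libraries, at 1.54 to 2.17 times the control mean for the 8 endothelial genes. 9 of the 10 genes passed an adjusted *P* of 0.05, all of them higher in *Eya1*cKO, while 5.15% of all genes tested were called higher and 4.41% lower. *Sox17* had the largest ratio of the 10, 3.51, but did not pass (adjusted *P* = 0.052). For all 10 genes both *Eya1*cKO libraries lay above both control libraries, which held for 25.3% of all genes tested. The median log2 fold change was 0.81 over the 10 genes and 0.02 over all genes tested, and the 981 genes called higher had a median of 1.23. In sorted bulk cells, a change in the share of endothelial cells cannot be told apart from a change in RNA per cell. With either control library left out, 0 of the 10 genes passed in edgeR's quasi-likelihood test, although 8 and 9 had an unadjusted *P* under 0.05 and only 23 genes of the whole table passed. With either *Eya1*cKO library left out, all 10 passed. Without the filter on low counts 5 of 10 passed.

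**Figure D1:**
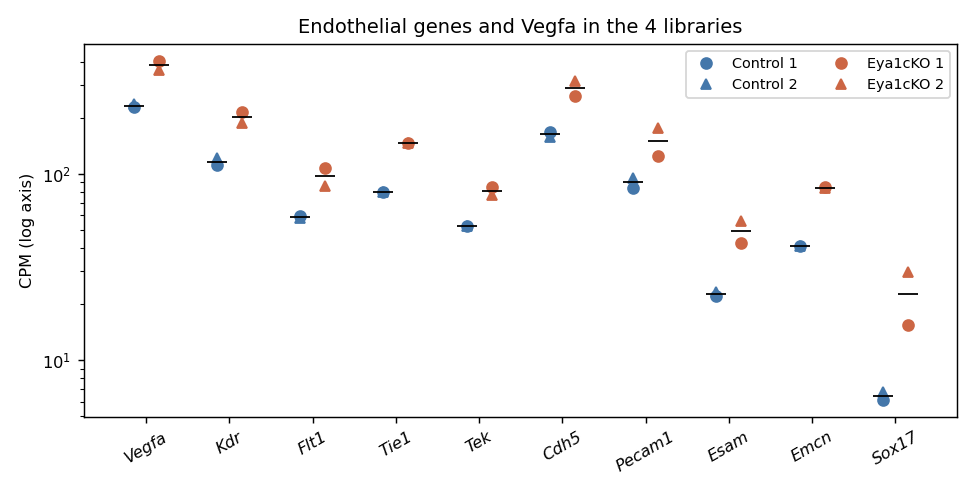
Level of each of the 10 genes in every library, in CPM on a log axis, with circles for libraries 1 and triangles for libraries 2, blue for control and red for *Eya1*cKO, and a bar at each mean. Both *Eya1*cKO points lie above both control points for each gene, by the smallest margin for *Pecam1* and with the widest spread between *Eya1*cKO libraries for *Sox17*.

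*Vegfa*, the ligand, lies on the minus strand of chr17:46016993-46032369 (all coordinates are GRCm38). It had 228 and 237 CPM in control 1 and 2 and 403 and 361 CPM in *Eya1*cKO 1 and 2. Both *Eya1*cKO libraries stood well above the controls, with means of 382 ± 29.7 and 232 ± 6.31 CPM. The log2 fold change was 0.72 (SE 0.09, adjusted *P* = 0.0048), the smallest adjusted *P* of the 10 genes. Because the *Eya1*cKO libraries were sequenced less deeply, the raw reads do not show this directly, with 7957 and 8866 reads in the controls and 9103 and 6330 in *Eya1*cKO.

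*Kdr*, the main signalling receptor for VEGF-A, lies on the minus strand of chr5:75932827-75978458. Its level was 111 and 121 CPM in control, against 215 and 188 CPM in *Eya1*cKO. The libraries did not overlap, and the log2 fold change of 0.80 (SE 0.11, adjusted *P* = 0.0078) was close to that of its ligand. *Flt1*, the high-affinity receptor on the minus strand of chr5:147561604-147726011, had 59.7 and 57.8 CPM in control, against 108 and 86 CPM in *Eya1*cKO. The *Eya1*cKO libraries differed from each other by more than the controls did, and the log2 fold change was 0.73 (SE 0.15, adjusted *P* = 0.03). Within a library, *Flt1* stood to *Kdr* as 0.359 and 0.32 in the controls and as 0.336 and 0.305 in *Eya1*cKO (ratio of FPKM). These ranges overlapped, so the receptors rose without a separable change in their ratio. The ratio of *Vegfa* to *Kdr* in FPKM was 4.31 and 4.12 in the controls and 3.96 and 4.04 in *Eya1*cKO. These did not overlap but differed little, and with 2 libraries against 2 an exact two-sided permutation test cannot give a *P* below 0.333.

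*Tek* encodes the receptor for angiopoietins and lies on the plus strand of chr4:94739289-94874976. It had 52.5 and 52.7 CPM in control, against 85.4 and 77.1 CPM in *Eya1*cKO. This was the smallest difference of the 10 genes (log2 fold change 0.63, SE 0.14, adjusted *P* = 0.038), with no overlap between genotypes. *Tie1*, its partner without a known angiopoietin ligand of its own, on the minus strand of chr4:118471191-118490061, had 79.6 and 79.9 CPM in the controls and 147 CPM in both *Eya1*cKO libraries. The libraries of a genotype were nearly equal, and the log2 fold change was 0.89 (SE 0.11, adjusted *P* = 0.0052). The ratio of *Tie1* to *Tek* in FPKM was 1.45 in both controls, 1.65 in *Eya1*cKO 1 and 1.83 in *Eya1*cKO 2. The ratio was thus higher in both *Eya1*cKO libraries, a difference that was not tested beyond the limit of 0.333 given above.

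The 250 bases before the RefSeq start of each of the 4 receptors are shown because these genes rose together, and ETS factors, whose sites centre on GGAA, act on many endothelial promoters. Capitals mark GGAA or its reverse complement TTCC, a word chosen after the promoters had been seen. The sequences are from RefSeq on GRCm38.p6, read 5′ to 3′ on the strand of the gene, from chr5:75978456-75978705 (minus) for *Kdr*, chr5:147726012-147726261 (minus) for *Flt1*, chr4:94739039-94739288 (plus) for *Tek* and chr4:118489850-118490099 (minus) for *Tie1*.
Kdr: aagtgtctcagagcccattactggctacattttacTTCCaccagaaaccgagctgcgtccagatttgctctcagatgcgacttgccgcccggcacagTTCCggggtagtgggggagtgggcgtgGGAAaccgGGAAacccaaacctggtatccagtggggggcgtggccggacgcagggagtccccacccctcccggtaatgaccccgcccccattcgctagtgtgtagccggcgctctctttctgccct
Flt1: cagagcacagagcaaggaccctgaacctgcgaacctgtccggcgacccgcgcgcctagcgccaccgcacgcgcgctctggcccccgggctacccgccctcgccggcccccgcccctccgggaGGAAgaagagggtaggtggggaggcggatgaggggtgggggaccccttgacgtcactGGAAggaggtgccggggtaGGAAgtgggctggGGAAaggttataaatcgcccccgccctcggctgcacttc
Tek: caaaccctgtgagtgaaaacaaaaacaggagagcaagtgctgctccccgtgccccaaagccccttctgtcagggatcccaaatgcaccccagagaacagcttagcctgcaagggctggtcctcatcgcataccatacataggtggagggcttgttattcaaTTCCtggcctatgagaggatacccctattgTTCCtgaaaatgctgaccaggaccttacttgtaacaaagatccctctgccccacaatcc
Tie1: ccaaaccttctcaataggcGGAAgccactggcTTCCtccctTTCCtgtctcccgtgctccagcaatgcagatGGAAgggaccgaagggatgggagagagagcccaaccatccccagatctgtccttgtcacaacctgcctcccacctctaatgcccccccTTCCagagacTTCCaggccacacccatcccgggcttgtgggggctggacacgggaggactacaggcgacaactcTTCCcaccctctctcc
The *Tie1* promoter held 7 GGAA cores, those of *Kdr* and *Flt1* 4 each and that of *Tek* 2. Over 32851 mouse promoters of the same length the median was 3, the quartiles were 2 and 4, and 93.4% held at least 1, so only *Tie1* of the 4 lay above the upper quartile. GC content was 61.6% for *Kdr*, 70.4% for *Flt1*, 60.4% for *Tie1* and 51.2% for *Tek*, with a median of 52.4% over all promoters. On either strand, the longer ETS word CAGGAAG, held by 10.8% of all promoters, was found before *Emcn* but not before the receptors, and CCGGAAG (6.91%) and the forkhead word TAAACA (12% of all promoters) were found before none of the 6 genes with a promoter in the table. TATAAA (12.4% of all promoters) was found before *Flt1*, 31 bases before its start. Of the partial words of the REST element, CAGCACC (5.73%) was found before none of the 6 genes, and GGACAG (18.7%) before *Flt1* and *Tie1*. *Vegfa* has a pair of starts in the table, and GGACAG was found before the one inside the gene and not before the one at the gene's 5′ end. The bases after the inner start were found in no GENCODE transcript of *Vegfa*, so that start is uncertain. These are matches of letters and not binding sites, and a missing word says nothing about the factor.

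*Cdh5*, which encodes VE-cadherin of the adherens junction, lies on the plus strand of chr8:104101625-104144511. It had 167 and 158 CPM in control, against 262 and 314 CPM in *Eya1*cKO. The genotypes were well apart (log2 fold change 0.82, SE 0.11, adjusted *P* = 0.0073). *Pecam1* encodes the adhesion molecule CD31 and lies on the minus strand of chr11:106654217-106750628. It had 84.4 and 95.3 CPM in the controls, 124 CPM in *Eya1*cKO 1 and 175 CPM in *Eya1*cKO 2. The *Eya1*cKO libraries lay farther apart (0.50 in log2 CPM) than the nearest libraries of different genotype (0.38), and the call was the weakest of those that passed (log2 fold change 0.72, SE 0.17, adjusted *P* = 0.049). *Esam*, a tight junction adhesion molecule of endothelium and platelets on the plus strand of chr9:37528078-37538319, had 22.2 and 23.2 CPM in control, against 42.6 and 56 CPM in *Eya1*cKO. Its *Eya1*cKO libraries were also uneven but clear of the controls (log2 fold change 1.10, SE 0.22, adjusted *P* = 0.027). *Emcn*, which encodes the sialomucin endomucin of capillary and venous endothelium, lies on the plus strand of chr3:137341067-137432185. It had 40.9 and 40.8 CPM in control, against 84.7 and 83.6 CPM in *Eya1*cKO. Endomucin transcripts were 2.06 times as high with hardly any spread in either genotype ( log2 fold change 1.05, SE 0.14, adjusted *P* = 0.0075). *Flt1*, *Tek*, *Pecam1* and *Esam* did not pass without the filter on low counts (adjusted *P* from 0.058 to 0.11). *Pecam1* also did not pass with the legacy method (0.086), the robust method (0.054) or thinned controls (0.08), *Flt1* with the legacy method (0.062) or thinned controls (0.064), *Tek* with the legacy method (0.065) and *Esam* with thinned controls (0.051). In contrast, *Kdr*, *Tie1*, *Cdh5*, *Emcn* and *Vegfa* passed under every alternative that kept all 4 libraries.

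*Sox17*, the SOXF transcription factor of arterial endothelium, lies on the minus strand of chr1:4490931-4497354. It had 6.13 and 6.76 CPM in the controls, 15.4 CPM in *Eya1*cKO 1 and 29.8 CPM in *Eya1*cKO 2, from 214 and 253 control reads and 349 and 523 *Eya1*cKO reads. *Eya1*cKO 2 was far above *Eya1*cKO 1, and both were above the controls. The log2 fold change was 1.76 (SE 0.44) and missed the threshold (adjusted *P* = 0.052), and it was 1.24 without *Eya1*cKO 2 and 2.20 without *Eya1*cKO 1. *Sox17* passed with library totals alone (adjusted *P* = 0.049), with at least 10 counts in every library (0.034) and with DESeq2 (0.0019). It is the only one of the 10 genes whose exons overlap another gene, with 16.8% of its exonic length shared with *Gm37587* on the opposite strand, and its reads cannot be assigned with certainty because the strand setting of the counting was not given. Relative to *Cdh5* in FPKM, *Sox17* was at 0.0322 and 0.0377 in the controls and at 0.0519 and 0.0837 in *Eya1*cKO. It was thus also higher in both *Eya1*cKO libraries when set against an endothelial gene of the same library. This ratio was not planned, and the difference was not tested beyond the limit of 0.333 given above. The ratio of *Pecam1* to *Cdh5*, also not planned, overlapped between the genotypes.

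**Figure D2:**
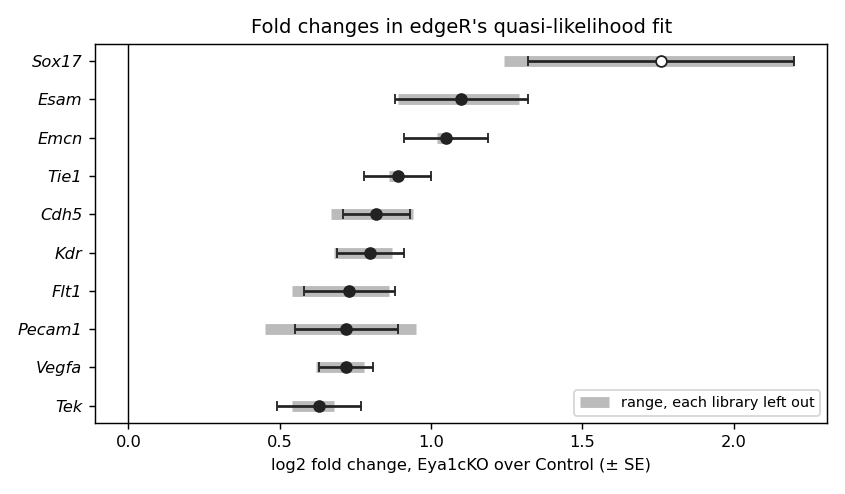
Log2 fold change of *Eya1*cKO over control for each of the 10 genes with its standard error, from edgeR's quasi-likelihood fit, with filled circles for genes that passed an adjusted *P* of 0.05 and an open circle for *Sox17*, which did not. All lie above 0, from 0.63 for *Tek* to 1.76 for *Sox17*, and the error bar is longest for *Sox17*.

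The 10 genes did not differ between the *Eya1*cKO libraries in the same way. In log2 CPM, *Sox17*, *Pecam1*, *Esam* and *Cdh5* were higher in *Eya1*cKO 2 than in *Eya1*cKO 1, by 0.95, 0.50, 0.39 and 0.26. *Flt1*, *Kdr*, *Vegfa* and *Tek* were lower in *Eya1*cKO 2, with differences of -0.33, -0.19, -0.16 and -0.15. *Tie1* and *Emcn* were level, with differences of 0.00 and -0.02. These are differences between single libraries and were not tested. The controls differed by between -0.08 and 0.17, and the order of the genes was not the same there. The median absolute difference between libraries was 0.06 in the controls and 0.22 in *Eya1*cKO for the 10 genes, compared with 0.10 and 0.30 for the 10407 tested genes with a mean of at least 10 CPM. The wider spread in *Eya1*cKO was therefore not particular to these genes.

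**Figure D3:**
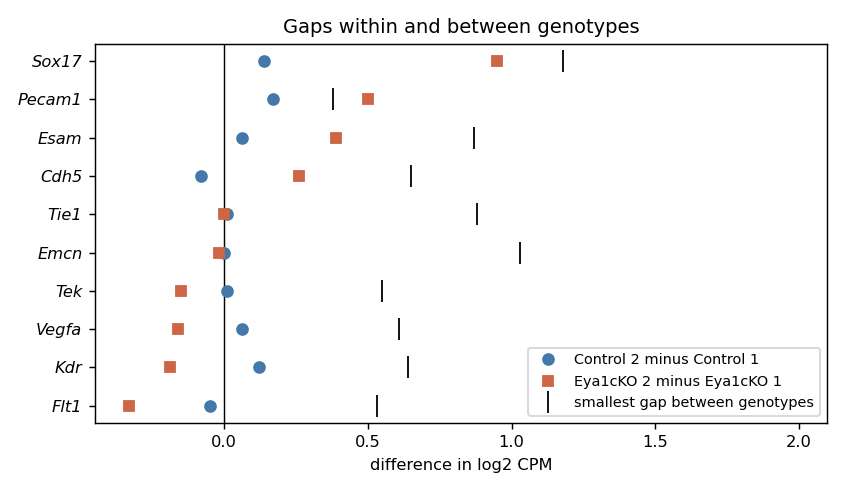
Difference in log2 CPM between the libraries of a genotype for each of the 10 genes, as blue circles for the controls and red squares for *Eya1*cKO, with a black mark at the smallest difference between an *Eya1*cKO and a control library. The black mark lies to the right of both symbols for every gene but *Pecam1*, whose *Eya1*cKO libraries differ by 0.50 against a smallest genotype difference of 0.38.

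Per exonic length, *Vegfa* was the most abundant of the 10 genes in both genotypes, at a mean of 54.2 FPKM in the controls and 89.1 FPKM in *Eya1*cKO. In the controls it was followed by *Cdh5* (38.7 FPKM), *Tie1* (16.2), *Pecam1* (14.4), *Kdr* (12.9), *Tek* (11.2), *Esam* (7.91), *Emcn* (7.54), *Flt1* (4.35) and *Sox17* (1.35), and no neighbours in this order overlapped. In *Eya1*cKO the order was the same, with *Cdh5* at 68.5 FPKM, *Tie1* at 30, *Kdr* at 22.3, *Flt1* at 7.17 and *Sox17* at 4.74. There *Pecam1* and *Kdr*, *Tek* and *Esam*, and *Esam* and *Emcn* overlapped and could not be ordered. Endothelial transcripts were therefore present in both genotypes of a sort made for *Eya1*-lineage cells, and the defining endothelial markers *Cdh5*, *Kdr*, *Tie1* and *Pecam1* were not at 0 in any library.

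The genes nearest to the median profile of the 8 endothelial genes, by root mean square difference of 4 centred log2 CPM values, were *Klf6* (0.010), *Gabarapl1* (0.022), *Vps18* (0.024), *Tpm1* (0.027) and the endothelial guidance receptor *Robo4* (0.028). Of the 10 genes, *Tie1* was nearest (0.027) and *Sox17* farthest (0.530). Most of these neighbours are widely expressed genes, and 174 genes outside the 10 lay within 0.1, so a profile over 4 libraries does not mark out endothelial genes.

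The other genes of the VEGF and angiopoietin pathways moved unevenly. Of 7 further VEGF ligands, receptors and co-receptors, 3 were higher, 1 was lower and 3 did not pass (median log2 fold change 0.35), while 5.15% of all genes tested were higher and 4.41% lower. The co-receptor *Nrp2* had 1919 and 1935 reads in the controls and 2995 and 2281 in *Eya1*cKO (log2 fold change 1.30, adjusted *P* = 0.002), and the ligand *Vegfd* (1.98, adjusted *P* = 0.0065) and the co-receptor *Nrp1* (0.40, adjusted *P* = 0.03) were also higher, *Nrp1* not without the filter on low counts. The ligand *Pgf*, which binds *Flt1* but not *Kdr*, had 428 and 360 reads in the controls and only 6 and 28 in *Eya1*cKO. It was lower (log2 fold change -3.68, SE 0.77, adjusted *P* = 0.026) while the receptors and *Vegfa* were higher, but with 1 library left out its log2 fold change ranged from -5.35 to -2.78, it did not pass with the legacy quasi-likelihood method, and its 6 reads in *Eya1*cKO 1 left it out of the test at 10 counts in every library. In the angiopoietin pathway 2 of 5 genes were higher and 3 did not pass, against the same 5.15%. *Angpt2*, the context-dependent antagonist of *Tek*, had 345 and 347 reads in the controls and 1146 and 1028 in *Eya1*cKO. It was higher (log2 fold change 2.50, SE 0.23, adjusted *P* = 0.0021), and whether it rose by more than its receptor was not tested. *Svep1*, a large extracellular protein that binds *Tie1*, was also higher (1.37, adjusted *P* = 0.041), while the agonist *Angpt1* had a log2 fold change of 1.05 and an adjusted *P* of 0.17. Both were uneven between the *Eya1*cKO libraries, higher in *Eya1*cKO 2 by 0.94 and 1.33 in log2 CPM, and with 1 library left out their log2 fold changes ranged from 0.85 to 1.80 and from 0.29 to 1.62. *Svep1* also lost its call without the filter on low counts, with the legacy method and with controls thinned to the depth of *Eya1*cKO, where 1 of the 5 genes passed.

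Of 17 other junction and surface genes, 9 were higher and 8 did not pass (median log2 fold change 0.76), beside the 5.15% of all genes tested that were higher. *Cldn5*, the claudin of endothelial tight junctions, had 2249 and 2639 reads in the controls and 3604 and 2761 in *Eya1*cKO (log2 fold change 1.23, adjusted *P* = 0.0019). The adhesion molecule *Mcam* (0.84, adjusted *P* = 0.0078) and the diaphragm protein *Plvap* (0.75, adjusted *P* = 0.02) were higher as well. The summed level of the 17 was 733 and 755 CPM in control, against 1215 and 1304 CPM in *Eya1*cKO. Of 12 other receptors and secreted factors, 6 were higher and 6 did not pass (median 0.81), led by the vascular factor *Egfl7* (1.49, adjusted *P* = 0.0091) and the apelin receptor *Aplnr* (1.10, adjusted *P* = 0.0093). Without the filter on low counts 5 of the 17 and 3 of the 12 passed, and with thinned controls 7 and 3. With control 1 left out 0 of these 17 and 12 genes passed in edgeR's test, with 8 and 5 at an unadjusted *P* under 0.05, and with control 2 left out again 0 passed, with 9 and 5 at that level. The VEGF, angiopoietin, transcription factor, arterial and venous lists likewise had no calls without either control library, with 1 to 4 genes of a list at an unadjusted *P* under 0.05.

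Of 17 endothelial transcription factors tested, 2 were higher and 15 did not pass (median log2 fold change 0.38), where 5.15% of all genes tested were higher. In this list 14 of the 17 had a positive log2 fold change, and 7 had an unadjusted *P* under 0.05 in edgeR's test. Those called were *Lmo2*, a cofactor of the haemato-endothelial complex (1.41, adjusted *P* = 0.0098), and the SOXF factor *Sox18* (1.32, adjusted *P* = 0.038). In the list 1 gene passed without the filter on low counts, with the legacy method or with thinned controls. The third SOXF factor, *Sox7*, had 548 and 557 reads in the controls and 324 and 161 in *Eya1*cKO, with a log2 fold change of -0.34 and an adjusted *P* of 0.57; it was chosen after its values were seen. *Foxc2*, the factor with the most CPM in the list, had a log2 fold change of -0.07 (adjusted *P* = 0.7), and *Hhex* had 1 read in control 1 and none elsewhere. Of 13 arterial genes, *Efnb2*, the ephrin of arterial endothelium, was higher (0.73, adjusted *P* = 0.0045), and the Notch ligand *Jag1* (-0.60, adjusted *P* = 0.016) and the Notch target *Hey1* (-1.12, adjusted *P* = 0.017) were lower, beside 5.15% of all genes tested called higher and 4.41% lower. *Notch1*, the arterial gene with the most CPM, had a log2 fold change of 0.14 (adjusted *P* = 0.3). *Jag1*, *Hey1* and *Efnb2* are also used by nephron epithelium. Of 6 venous and lymphatic genes tested, the scavenger receptors *Stab2* (2.03, adjusted *P* = 0.006) and *Stab1* (0.73, adjusted *P* = 0.031) were higher and the venous regulator *Nr2f2*, which stroma also uses, was lower (-0.36, adjusted *P* = 0.013). Under the same 3 alternatives 1 gene of this list was called higher instead of 2. The lymphatic gene *Pdpn* was listed at 0 reads in all 4 libraries, and whether this reflects the cells or the counting and annotation was not tested.

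**Figure D4:**
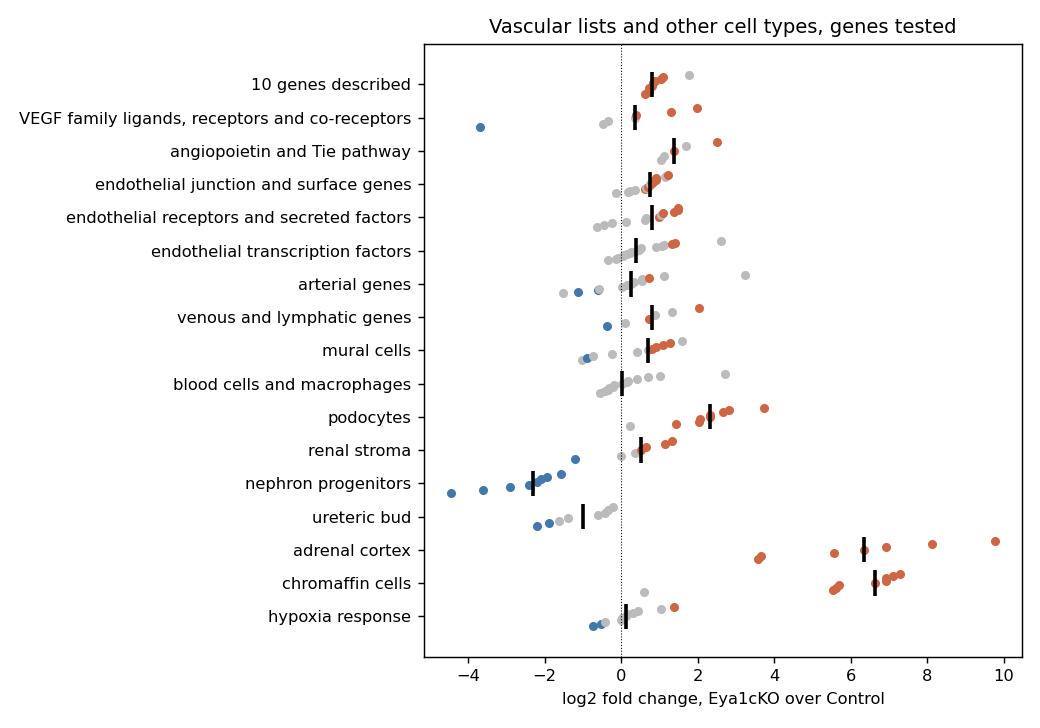
Log2 fold change of *Eya1*cKO over control for each tested gene of the 10 genes and of the other gene lists, with red points for genes called higher, blue for genes called lower, grey for genes that did not pass an adjusted *P* of 0.05, and a black bar at each list's median. The 10 genes and the endothelial junction and receptor lists have medians between 0.76 and 0.81, the podocyte and adrenal lists lie higher and the NPC list lies below 0.

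Markers of other cell types moved with the same libraries, and their counts are to be read against 5.15% of all genes tested higher and 4.41% lower. All 9 podocyte genes had an unadjusted *P* under 0.05 and 8 were called higher (median log2 fold change 2.31), and their summed level was 906 and 923 CPM in control, against 2898 and 2946 CPM in *Eya1*cKO. *Podxl*, the podocyte sialomucin that endothelium also makes, had the most CPM (log2 fold change 2.31, SE 0.06, adjusted *P* = 1.6e-05), followed by smallest *P* by the podocyte phosphatase *Ptpro* (2.81, adjusted *P* = 2.1e-04). Of 7 stromal genes 4 were higher and 1 was lower, with sums of 2710 and 2673 CPM in control, against 5474 and 5736 CPM in *Eya1*cKO. The collagen genes *Col3a1* (1.33, adjusted *P* = 5.5e-05) and *Col1a1* (1.15, adjusted *P* = 2.8e-04) led the list. They made up most of these sums, with means of 964 and 1067 CPM in control and 2422 and 2367 CPM in *Eya1*cKO. The other genes called higher, *Tcf21* (0.65) and *Foxd1* (0.51), rose by less, and *Pdgfra* (0.35, adjusted *P* = 0.12) and *Meis1* (adjusted *P* = 0.99) did not pass. The stromal transcription factor *Tbx18* was the lower gene (-1.21, adjusted *P* = 0.047). Its call was lost without the filter on low counts, with library totals alone, with the legacy method and with thinned controls. The 8 NPC genes fell from sums of 1654 and 1624 CPM to 357 and 320 CPM, led by the NPC factor *Pax2* (-2.20, adjusted *P* = 7.3e-05) and *Eya1* itself. Of 8 ureteric bud genes 2 were lower and 6 did not pass, with sums of 253 and 272 CPM in control and 163 and 132 CPM in *Eya1*cKO. Those called were the calcium-binding gene *Calb1* (-2.19, adjusted *P* = 0.0034) and the GDNF receptor *Ret* (-1.89, adjusted *P* = 0.023), while *Cdh1*, with the most CPM, had a log2 fold change of -0.35 (adjusted *P* = 0.19). All 7 adrenal cortex genes were higher, with sums of 19.1 and 12.1 CPM in control, against 729 and 693 CPM in *Eya1*cKO, as were 8 of 9 chromaffin genes, with sums of 6.13 and 9.8 CPM and of 559 and 580 CPM. They were led by the steroidogenic genes *Hsd3b1* (9.77, adjusted *P* = 6.9e-07) and *Cyp21a1* (8.12, adjusted *P* = 5.5e-05), which have close copies, and by the granins *Chga* (6.93, adjusted *P* = 5.5e-05) and *Chgb* (5.68, adjusted *P* = 1.1e-04). Control reads were few, at 7 and 14 for *Hsd3b1*, 3 and 15 for *Cyp21a1*, 44 and 52 for *Chga* and 68 and 190 for *Chgb*. With 1 library left out, the log2 fold changes ranged from 9.38 to 10.27, 7.42 to 9.58, 6.84 to 7.00 and 5.15 to 6.54 in the same order. With control 1 or control 2 left out, the calls fell to 1 and 1 of the adrenal cortex genes, 2 and 2 of the chromaffin genes, 2 and 3 of the podocyte genes, 4 and 3 of the NPC genes and 2 and 2 of the stromal genes. The ureteric bud list had 0 calls without either control, with 2 and 3 genes at an unadjusted *P* under 0.05 in edgeR's test, and 6 and 5 without *Eya1*cKO 1 and *Eya1*cKO 2. The median log2 fold change of the 8 endothelial genes, 0.81, was below those of the podocyte (2.31) and adrenal cortex (6.35) lists, and the part of these cell types in the endothelial result was not tested. Blood cell and macrophage genes were level, with sums of 152 and 151 CPM in control, against 151 and 157 CPM in *Eya1*cKO. None of the 13 tested was called by edgeR or by DESeq2, and 1 had an unadjusted *P* under 0.05. The smallest *P* were those of the erythroid factor *Gata1* (44 and 1 reads in the controls, 108 and 55 in *Eya1*cKO, log2 fold change 2.70, or 1.67 to 6.99 with 1 library left out, adjusted *P* = 0.13) and the macrophage gene *Cd68* (-0.55, adjusted *P* = 0.33), and *Csf1r*, with the most CPM, had a log2 fold change of 0.19 (adjusted *P* = 0.55). The haemoglobin genes *Hba-a1*, *Hba-a2*, *Hba-x*, *Hbb-bs*, *Hbb-bt* and *Hbb-bh1* had at most 3 reads in any library, and *Hbb-y* had 1 and 7 reads in the controls and 0 and 19 in *Eya1*cKO. Near-identical copies can lose reads in counting, so these levels are uncertain, and whether they reflect the cells or the counting was not tested.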

How the data were processed

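mRNA of 5000 sorted cells per library was made into random-primed, strand-specific SMARTer libraries and sequenced from one end. The authors aligned the reads to mm10 with HISAT2, counted them on Ensembl genes with HTSeq-count and tested them with DESeq2, and the deposited values are these raw counts per gene. The strand setting of the counting was not given in the sources used here. Rows that name no gene (31.8% to 46.1% of each file's counts) were left out of library sizes and tests. The labels and the methods give different numbers of kidneys and females per genotype.

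The raw counts were tested with edgeR 4.0.16 (R 4.3.3). Low genes were removed by filterByExpr (minimum count 10), TMM factors scaled the libraries, and the fit used glmQLFit (legacy = FALSE) and glmQLFTest, with Benjamini-Hochberg adjustment over all 19041 genes and a threshold of 0.05. Standard errors were derived from the log2 fold change and its F statistic. Log2 CPM used a prior count of 2. Coordinates and exonic lengths are from GENCODE M21, a later release than the one counted on, so FPKM are approximate. The test was checked on counts simulated with the same dispersion for every gene and library. That check does not cover genotypes of unequal spread such as these.

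The 10 genes and all gene lists were chosen with earlier results of these data known. Named from each other list were the 2 genes of smallest *P*, the gene of highest mean CPM, genes at 3 counts or fewer in every library, and genes called against the list's median, with further genes of a list named as examples. The 5 nearest profiles were named without a test. Alternatives were library totals alone, DESeq2's size factors, other low-count filters, DESeq2 1.42.0, legacy and robust quasi-likelihood, a replicate block, each library left out, and controls thinned to the depth of *Eya1*cKO, the last chosen after seeing the data. Each group has 2 libraries, so no outlier could be tested.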

Additional observations from a re-analysis of the deposited data

How the results depend on the processing

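All 10 genes were higher in *Eya1*cKO under every alternative run, and which of them passed depended on the test. The count of 9 became 5 with no low-count filter and 5 with the replicate block, and ranged from 0 to 10 with 1 library left out, 0 without either control library and 10 without either *Eya1*cKO library. It was 6 with the legacy method, 6 with thinned controls (chosen after seeing the data), 8 with the robust method, 9 with DESeq2's size factors, and 10 with library totals alone, at least 10 counts in every library, or DESeq2. The median log2 fold change of 0.81 was 0.85 with library totals alone and 0.79 to 0.91 with 1 library left out. The 1820 genes called over the whole table became 1055 with no low-count filter, 3113 with DESeq2, 1096 with the legacy method and 621 with the replicate block, and ranged from 23 to 7925 with 1 library left out. Of the counts of the other lists in each direction, 249 stayed within 1.5 times and 39 did not, and with 1 library left out 66 did and 62 did not. Where 1 library was left out, the lone library was assumed to vary like those of the other genotype. The controls varied less than the *Eya1*cKO libraries, by a median absolute difference of 0.10 against 0.30 in log2 CPM.

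Control and *Eya1*cKO libraries of the same number share only a number: their deviations correlated by 0.01 across genes, and the replicate block is no pairing. With it *Flt1*, *Tek*, *Pecam1* and *Esam* did not pass (adjusted *P* from 0.071 to 0.13). With it, calls in both directions together numbered 3 of 17 in the junction list, 1 of 12 in the receptor list, 2 of 7 in the VEGF list, 1 of 5 in the angiopoietin list, 1 of 13 in the arterial list, 2 of 6 in the venous and lymphatic list (without *Stab1*), 2 of 11 in the mural list, 1 of 11 in the hypoxia list, 2 of 7 in the stroma list and 1 of 8 in the ureteric bud list. They numbered 0 of 17 in the transcription factor list, where edgeR gave 6 an unadjusted *P* under 0.05 and DESeq2, run without the block, called 5. Libraries of a genotype differed by more than counting noise (chi-square per degree of freedom 9.38 in the controls and 49.2 in *Eya1*cKO). None of the 10 genes was near the limit of 3 counts.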

Other observations

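Mural cells, the pericytes and smooth muscle cells that wrap vessels, were measured by 11 genes, of which 4 were higher in *Eya1*cKO, 1 was lower and 6 did not pass, with a median log2 fold change of 0.69, while 5.15% of all genes tested were higher and 4.41% lower. The summed level was 631 and 677 CPM in control, against 892 and 788 CPM in *Eya1*cKO. *Pdgfrb*, the receptor that recruits pericytes to endothelium, had 4904 and 5743 reads in the controls and 6319 and 4762 in *Eya1*cKO (log2 fold change 0.91, SE 0.09, adjusted *P* = 0.0027). The pericyte channel subunit *Abcc9* was higher as well (1.28, adjusted *P* = 0.0065), whereas the muscle intermediate filament *Des* was lower (-0.89, adjusted *P* = 0.02), a call lost with the legacy method. *Pdgfrb* is also made by renal stroma, and the list does not separate these cells. With either control library left out none of the 11 passed in edgeR's test, with 4 and 5 at an unadjusted *P* under 0.05.

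Hypoxia can raise *Vegfa*, and 11 genes of the hypoxia response were therefore set beside it. Of these 1 was higher, 2 were lower and 8 did not pass, with a median log2 fold change of 0.13, beside the same 5.15% and 4.41% over all genes. *Epas1*, the hypoxia-inducible factor that endothelium makes in large amounts, was higher (1.38, SE 0.14, adjusted *P* = 0.0032), with 1476 and 1788 reads in the controls and 2488 and 2197 in *Eya1*cKO. The glycolytic targets *Ldha* (-0.52, adjusted *P* = 0.018) and *Slc2a1* (-0.74, adjusted *P* = 0.043) were lower, and 1 gene of the list was called lower instead of 2 without the filter on low counts, with library totals alone, with the legacy method and with thinned controls. With either control library left out none of the 11 passed, and 3 of the 11 had an unadjusted *P* under 0.05 each time. These are values beside *Vegfa* and no cause was tested.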
